A study of Homo sapiens with 20 samples.

Results

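The genes that set 6 untreated lung cancer cell lines apart were described from their Mock mRNA-seq libraries. A gene was taken for a line when it reached at least 5 FPKM (fragments per kilobase of transcript, scaled to library size) in the Mock library of that line and stayed under 0.5 FPKM in the other 5. A gene silent in 1 line, meaning under 0.5 FPKM there, was taken when the other 5 lines each had at least 5 FPKM. By this rule 360 genes were expressed in 1 line and 132 were silent in 1 line, together 492 of the 36076 genes in the table. Both limits act on 1 library per line, so the memberships and levels are descriptions without a replicate check, and no p-value is given.

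The lines were A549, CL1-0, CL1-5, H1792, PC9 and H1299, each sequenced once as Mock and once after decitabine (DAC), which is built into DNA and traps DNA methyltransferases. DAC was given at 100 nM for 72 h and was followed by 3 days without drug, and the Mock cells received PBS. Accessible chromatin was profiled by ATAC-seq in Mock and DAC cells of A549, CL1-5, PC9 and H1299, again with 1 library each. Each line came from 1 patient, and CL1-0 and CL1-5 from the same one, so a line stands for its own tumour only.

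Lung adenocarcinoma arises from airway and alveolar epithelium, whose cells carry keratins, E-cadherin and EPCAM, and cultured lines keep this programme to very different degrees. A549 is a widely used adenocarcinoma line with mutant KEAP1 and STK11, and PC9 is an adenocarcinoma line driven by mutant EGFR. CL1-0 and CL1-5 are sublines of 1 adenocarcinoma, of which CL1-5 was selected for invasion. H1792 is an adenocarcinoma line, and H1299 is a non-small cell carcinoma line from a lymph node. Cancer cells often silence genes through methylation of CpG-rich promoters, and DAC lowers that methylation. Cancer-testis genes are restricted to the germ line in normal adults and are a well-known class of genes that methylation keeps off.

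Reads on genes numbered 22234485 to 25303899 in the 10 libraries of the other 5 lines and 59735913 (Mock) and 52634234 (DAC) in H1299. Every value in the table was a whole multiple of 1 read. Among genes with 1 to 20 reads, 85.5% had an even number of reads in H1299 Mock, compared with 39.2% to 41.5% in the other 10 libraries. Mitochondrial genes took 14.3% to 27.1% of the summed FPKM in the other 5 Mock libraries and 0% in H1299. The H1299 genes are given apart from the others, and silent means under the limit in these libraries. The ATAC-seq libraries labelled CL1-5 hold peaks whose names begin with PC9, and those labelled PC9 hold peaks named for CL1-5. They are called by their labels here, and results that rest on them are given for both.

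The sizes of the sets were uneven. Genes expressed in 1 line numbered 44 in A549 (0.122% of all genes), 13 in CL1-0 (0.036%), 22 in CL1-5 (0.061%), 44 in H1792 (0.122%), 100 in PC9 (0.277%) and 137 in H1299 (0.38%). Genes silent in 1 line numbered 3 in A549 (0.00832%), 21 in CL1-0 (0.0582%), 1 in CL1-5 (0.00277%), 4 in H1792 (0.0111%), 11 in PC9 (0.0305%) and 92 in H1299 (0.255%). Without H1299, 263 members remained, of which 214 were protein-coding. In all 6 Mock libraries 4170 genes reached 5 FPKM and 16411 stayed under 0.5 FPKM. PC9 had the largest set among the 5 lines with like libraries, and CL1-0 was the only one of those 5 with more silent than expressed members.

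**Figure D1:**
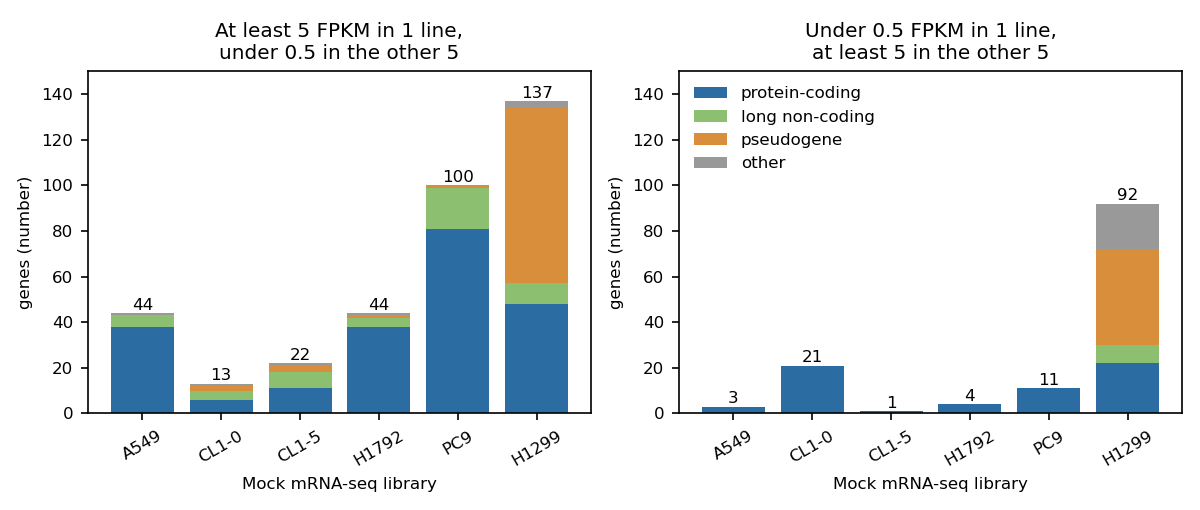
Number of genes at or above 5 FPKM in 1 line and under 0.5 FPKM in the other 5 (left), and under 0.5 FPKM in 1 line and at or above 5 FPKM in the other 5 (right), for each Mock mRNA-seq library, split by gene type. PC9 leads the lines other than H1299 with 100 expressed genes, CL1-0 has 21 silent genes, and pseudogenes make up 77 of the 137 expressed and 42 of the 92 silent genes of H1299.

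The limit of 5 FPKM falls within a dense range. Just inside it were PDE3A in A549 (5.01 FPKM), GFI1 in H1792 (5.06 FPKM) and HSH2D in PC9 (5.01 FPKM). VCAN in A549 (4.82 FPKM), EVI2B in H1792 (4.99997 FPKM) and CLDN9 in PC9 (4.9987 FPKM) fell just outside. Over the 6 lines, 62 members had between 5 and 6 FPKM and 78 non-members had between 4 and 5 FPKM.

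Genes expressed in PC9 alone were led by genes of stratified and polarised epithelium. Kallikrein 6 (KLK6), a secreted serine protease, had 319 FPKM in PC9 and 0, 0, 0.0236, 0.0354 and 0.0373 FPKM elsewhere. KRT13, a keratin of stratified epithelium, had 264 FPKM in PC9 and at most 0.204 FPKM in the others. KLK5, another kallikrein, had 193 FPKM, the lipid raft protein MAL had 139 FPKM, S100A14 had 132 FPKM and MAL2, which acts in apical transport, had 101 FPKM. The highest value of these 4 genes in any other line was 0.274 FPKM. C6orf15 at 86.3 FPKM was listed at 0 in all 5 other Mock libraries.

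Regulators and enzymes that maintain epithelial junctions were also among the PC9 genes. GRHL2, a transcription factor that holds the epithelial state, had 20.5 FPKM in PC9, 0.0462 FPKM in H1299 and 0 in the other 4 lines. ESRP1, an epithelial splicing regulator, had 43.7 FPKM in PC9 and 0.484 FPKM in the next line, CL1-5. The vesicle traffic gene RAB25 had 48.2 FPKM, matriptase (ST14) had 63.3 FPKM and prostasin (PRSS8), which matriptase activates, had 9.96 FPKM, with no other line above 0.148 FPKM. Basal and squamous keratins KRT5 (73.7 FPKM), KRT6B (69.4 FPKM) and KRT16 (34.3 FPKM) were members too. KRT6B and KRT16 shared 57.8% and 39.1% of their 31-base words with another gene's transcript, so reads of near-identical keratins may be divided among them. TP63, the regulator of squamous epithelium, stayed at 0.103 FPKM in PC9.

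Over 20 epithelial genes, 19 reached 5 FPKM in PC9, 6 in H1792, 5 in A549, 2 in CL1-5, 2 in H1299 and 0 in CL1-0. Of all genes, 19.3%, 19.8%, 19%, 18.7%, 18.6% and 18.2% reached 5 FPKM in PC9, H1792, A549, CL1-5, H1299 and CL1-0, in that order. EPCAM, an epithelial adhesion molecule, had 235 FPKM in PC9, 4.32 in H1792, 3.19 in A549, 0.151 in CL1-0, 0.132 in CL1-5 and 0.0555 in H1299. E-cadherin (CDH1) had 25.5 FPKM in PC9 and 24.8 in A549, and between 0.0113 and 1.33 FPKM in the other 4 lines. Vimentin (VIM), an intermediate filament of mesenchymal cells, had 4.77 FPKM in PC9 and 122 to 481 FPKM in the other 5. PC9 was thus the high sample for EPCAM and the low one for vimentin, while E-cadherin was at about the same level in PC9 and A549.

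Of 18 mesenchymal genes, 13 reached 5 FPKM in H1792, 10 in CL1-5, 6 in A549, 6 in H1299, 4 in PC9 and 2 in CL1-0. N-cadherin (CDH2) had 165 FPKM in H1792, and 10.3 FPKM in H1299 was the next value. SNAI2, a repressor of epithelial genes, had 44.3 FPKM in CL1-5 and at most 4.68 FPKM elsewhere. Of 10 squamous genes, 4 reached 5 FPKM in PC9, 1 each in CL1-0, H1792 and H1299, and 0 in A549 and CL1-5. Beside both lists, 18.2% (CL1-0) to 19.8% (H1792) of all genes reached this level.

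**Figure D2:**
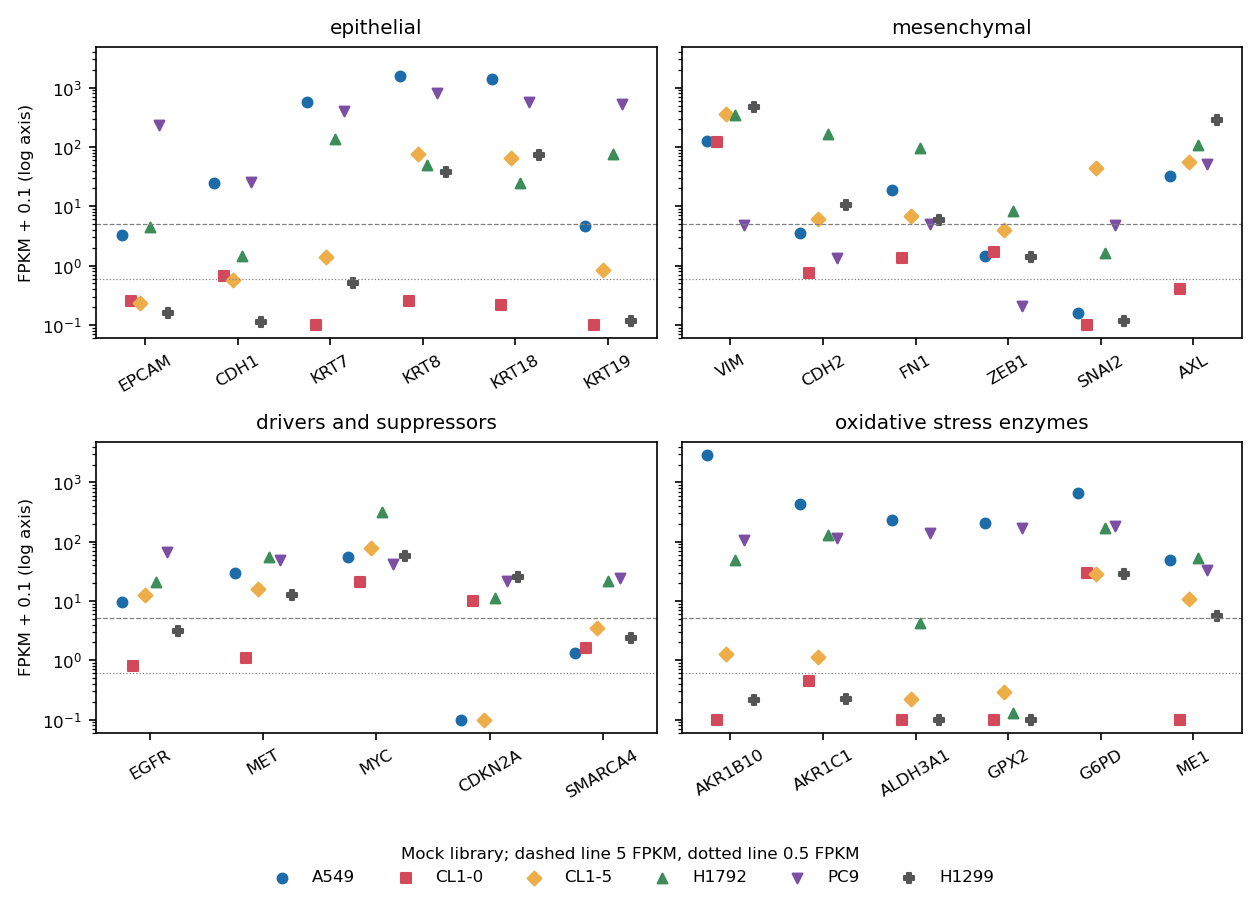
Levels of epithelial, mesenchymal, driver or suppressor, and oxidative stress genes in the 6 Mock libraries (FPKM + 0.1, log axis; 1 point per library; dashed and dotted lines mark 5 and 0.5 FPKM). PC9 is the highest for EPCAM and KRT19 and the lowest for VIM, CL1-0 is at or near the floor for the keratins and AXL, and CDKN2A is at 0 in A549 and CL1-5.

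A549 expressed 44 genes that the other lines lacked, and genes of liver and gut stood among them. HNF4A, a nuclear receptor of hepatocytes and gut, had 9.52 FPKM in A549 and at most 0.0622 FPKM elsewhere. Plasma protein genes made by hepatocytes included FGA (fibrinogen alpha, 14.3 FPKM), APOH (16.9 FPKM) and vitronectin (VTN, 17.8 FPKM), whose highest value in another line was 0.396 FPKM. Fibrinogen beta (FGB) was shared by A549 (17.6 FPKM) and CL1-0 (6.55 FPKM), and fibrinogen gamma (FGG) was highest in CL1-0 at 89.4 FPKM, with 10.2 FPKM in A549. Of 23 foregut and hepatic genes, 7 reached 5 FPKM in A549, 2 in CL1-0, 1 in H1299 and 0 in CL1-5, H1792 and PC9. The share of all genes at this level was 18.2% (CL1-0) to 19.8% (H1792). In A549, 11 of the 23 were under 0.5 FPKM. Among these were albumin (ALB, 0.0276 FPKM), TTR (0.0215 FPKM), APOA1 (0.0328 FPKM), APOB (0 FPKM) and the gut factor CDX2 (0.294 FPKM). The list was thus expressed in part only.

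The highest A549 genes were of other kinds. RSPO3, a secreted amplifier of WNT signalling, had 53.2 FPKM in A549, 0.456 in H1792, 0.426 in CL1-0, 0.139 in CL1-5, 0.011 in H1299 and 0 in PC9. TM4SF20 (51.0 FPKM) and TM4SF4 (45.6 FPKM), transmembrane proteins of the tetraspanin-like L6 family, did not pass 0.138 FPKM elsewhere. INSL4, an insulin-like peptide of the placenta, had 46.3 FPKM, SUSD2 had 32.0 FPKM, and HGD, an enzyme of tyrosine breakdown, had 31.01 FPKM. The tight junction pore CLDN2 (30.97 FPKM) and the sulfatase ARSE (29.8 FPKM) completed the 8 highest coding genes. NTRK3, a neurotrophin receptor kinase (7.09 FPKM), and DDC, an enzyme of monoamine synthesis (5.22 FPKM), were the members from the driver and neural lists.

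NRF2 targets were high in A549, the line with mutant KEAP1, and also in PC9 and H1792. Of 22 such genes, 20 reached 5 FPKM in A549, 19 in PC9, 17 in H1792, 10 in CL1-0, 8 in CL1-5 and 8 in H1299. Their median was 139 FPKM in A549 and 67.1 FPKM in PC9. Among all genes, 18.2% (CL1-0) to 19.8% (H1792) reached 5 FPKM. The aldo-keto reductase AKR1B10 had 2903 FPKM in A549, 107 in PC9, 48.2 in H1792, 1.16 in CL1-5, 0.11 in H1299 and 0 in CL1-0. Glutathione peroxidase 2 (GPX2) had 203 FPKM in A549 and 169 in PC9 and at most 0.197 FPKM in the other 4. Other targets were ordered differently. The quinone reductase NQO1 had 765 FPKM in A549, 346 in CL1-0, 214 in H1792, 211 in PC9, 121 in CL1-5 and 118 in H1299. The aldehyde dehydrogenase ALDH1A1 had 3351 FPKM in A549 and 200.5 in CL1-0, and 0.0338 FPKM in PC9.

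H1792 also expressed 44 genes alone. ANXA10, an annexin, had 70.9 FPKM in H1792 and 0, 0, 0.257, 0.309 and 0.345 FPKM elsewhere. The neutrophil chemokine CXCL6 had 38.0 FPKM against at most 0.0661 FPKM. SLC17A9, a vesicular nucleotide transporter, had 26.3 FPKM, and TSPAN8, a tetraspanin, had 22.4 FPKM. The surface peptidase DPP4 had 18.7 FPKM and GPR143, a pigment cell receptor, had 18.3 FPKM. SERPINB3 had 17.6 FPKM and shared 41.1% of its 31-base words with another transcript. CD74, the invariant chain of class II antigen presentation, had 17.1 FPKM, and the interleukin 7 receptor (IL7R) had 13.6 FPKM.

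Lumican (LUM), a matrix proteoglycan of fibroblasts, had 25.9 FPKM in H1792 and at most 0.268 FPKM in the other lines. Of 7 fibroblast genes, 2 reached 5 FPKM in H1792, where 19.8% of all genes did, and 0 in every other line. The summed level of the 7 genes was 103 FPKM in H1792, of which COL1A1 made 68.6 FPKM, and 0.808 to 5.33 FPKM in the others. The rest of the list was low in H1792, with COL3A1, DCN, PDGFRB and ACTA2 at 0.908 to 3.53 FPKM. COL1A2 had 0.0867 FPKM in H1792, below the 1.71 FPKM of CL1-0. Whether cells of another type contributed to the H1792 library was not tested, and more RNA per cell cannot be told apart from more cells in bulk libraries. None of 9 leukocyte genes reached 5 FPKM in any Mock library, and their summed level was 0.769 to 5.21 FPKM. None of the 4 endothelial genes in the table did either, with sums of 0 to 1.33 FPKM. PTPRC, the pan-leukocyte marker, did not exceed 0.0759 FPKM, and CDH5, an endothelial cadherin, did not exceed 0.314 FPKM.

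**Figure D3:**
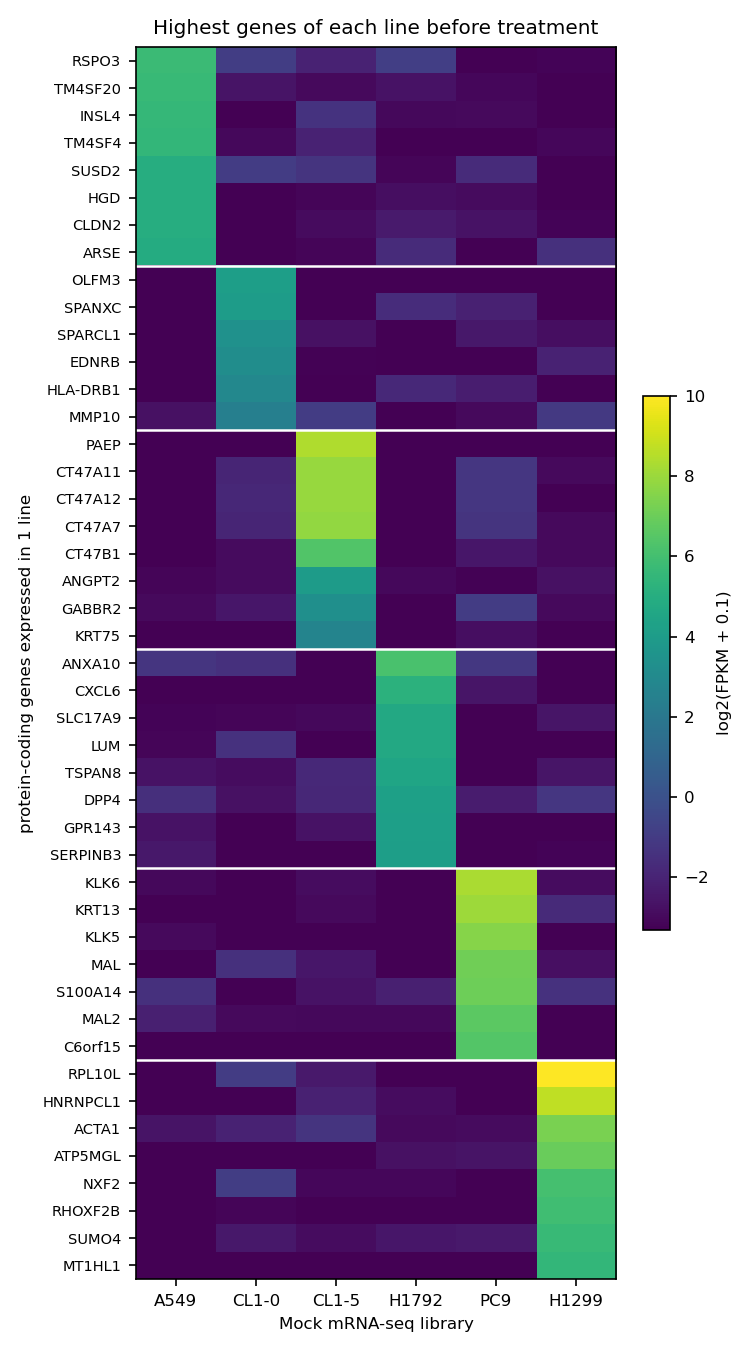
Level of the protein-coding genes with the highest FPKM among those expressed in 1 line (up to 8 per line), as log2(FPKM + 0.1) in the 6 Mock libraries. Each block is bright in 1 column, from MMP10 at 5.32 FPKM in CL1-0 to RPL10L at 1004 FPKM in H1299, and dark in the other 5, which the rule itself set.

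CL1-0 had the smallest expressed set, with 6 coding genes. OLFM3, a secreted olfactomedin protein of the nervous system, had 17.4 FPKM in CL1-0 and was listed at 0 in the other 5 lines. SPARCL1, a matricellular protein, had 10.6 FPKM, and the endothelin receptor EDNRB had 8.99 FPKM. HLA-DRB1 had 7.34 FPKM and MMP10, a matrix metalloproteinase, had 5.32 FPKM. SPANXC, a cancer-testis gene with 16.4 FPKM, shared 79.8% of its 31-base words with another transcript. Outside the set, CL1-0 held the neurofilament gene NEFL at 119 FPKM, which A549 and CL1-5 had at 7.24 and 5.79 FPKM, and SOX2, a stem cell factor, at 47.7 FPKM, with 0.682 FPKM the next value. Of 21 neural and neuroendocrine genes, 5 reached 5 FPKM in CL1-0, 4 in A549, 3 in H1792, 2 in CL1-5, 2 in PC9 and 1 in H1299. The share of all genes at this level was 18.2% (CL1-0) to 19.8% (H1792).

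CL1-5 expressed 22 genes alone, of which 11 were coding. PAEP (glycodelin), a secreted lipocalin of the endometrium, had 336 FPKM in CL1-5 and was listed at 0 in the other 5 Mock libraries. CT47A11, CT47A12 and CT47A7 had 244, 242 and 229 FPKM in CL1-5 and at most 0.335 FPKM elsewhere. They shared 95.3% to 100% of their 31-base words with another transcript, so they cannot be counted as separate genes. The cancer-testis genes CT47B1 (82.1 FPKM), MAGEA11 (6.25 FPKM) and MAGEB17 (6.05 FPKM) joined them. These 6 of the 11 coding members lay on the X chromosome, the CT47A copies counted separately. ANGPT2, a vascular ligand (15.9 FPKM), the GABA receptor gene GABBR2 (9.73 FPKM), KRT75 (6.41 FPKM) and POU2F2 (5.25 FPKM) were the others named by level.

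CL1-0 and CL1-5 were the most alike pair of libraries. Across 13052 coding genes, which share each library's depth and are not replicates, Pearson's r of log2(FPKM + 0.1) was 0.848 for this pair. Among the 5 lines with like libraries the lowest value was 0.676, for CL1-0 and PC9. PC9 and H1299 had 0.634, but the H1299 library had the unlike read numbers given above, so this value is not ranked with the others. Few genes were expressed in exactly 2 lines. H1792 and PC9 shared 15, among them the epithelial factor EHF (18.1 and 13.5 FPKM). A549 and PC9 shared 11, including CEACAM6 (12.5 and 409 FPKM) and the adaptor GRB7 (7.25 and 5.35 FPKM). A549 and H1792 shared 5, such as the chemokine CXCL5 (44.6 and 262 FPKM) and the prostaglandin synthase PTGS2 (19.4 and 17.0 FPKM). Interleukin 6 (IL6) was among the 5 of CL1-5 and H1792, at 15.1 and 13.4 FPKM. The 2 CL1 lines alone shared 2 genes. With H1299 they shared 15 coding genes, all of them cancer-testis genes such as MAGEA4, with 207, 58.9 and 268 FPKM in CL1-0, CL1-5 and H1299 and at most 0.0937 FPKM in the other 3, and PASD1, with 15.8, 15.9 and 9.76 FPKM. Most of the 15 are GAGE copies that share reads.

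NKX2-1, NAPSA and the surfactant genes were under 0.5 FPKM in all 6 lines, while other genes of the lung list differed between them. NKX2-1, the lung master regulator, reached at most 0.335 FPKM (CL1-0), and the aspartic protease NAPSA at most 0.417 FPKM (A549). Surfactant genes SFTPB, SFTPA1 and SFTPC did not pass 0.162 FPKM. Of 23 lung lineage genes, 5 reached 5 FPKM in A549, 4 in H1792, 3 in PC9, 2 in H1299 and 1 each in CL1-0 and CL1-5. The share of all genes at this level was 18.2% (CL1-0) to 19.8% (H1792), so these counts are a description. FOXA2, a factor of foregut endoderm, was at 17.3 FPKM in A549 and 10.8 FPKM in CL1-5 and under 1 FPKM in the other 4. AGR2, a secretory cell protein, had 79.1 FPKM in A549 and 33.8 FPKM in PC9 and at most 0.156 FPKM elsewhere. GATA6, an endodermal factor, had 16.7 FPKM in H1792, and 3.86 FPKM in H1299 was the next value.

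Drivers differed in level between the lines. EGFR had 67.2 FPKM in PC9, 20.5 in H1792, 12.4 in CL1-5, 9.46 in A549, 3.08 in H1299 and 0.711 in CL1-0. MET, the receptor of hepatocyte growth factor, had 0.975 FPKM in CL1-0 and 12.8 to 55.7 FPKM in the other 5. MYC had 313 FPKM in H1792 and 21.1 to 78.2 FPKM elsewhere. Of 28 receptor kinases and drivers, 12 reached 5 FPKM in A549, 9 in H1792, 8 in PC9, 8 in CL1-0, 7 in CL1-5 and 6 in H1299. Among all genes, 18.2% (CL1-0) to 19.8% (H1792) reached this level.

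Of 19 tumour suppressors, between 9 (A549) and 12 (H1792) reached 5 FPKM, and of all genes 18.2% (CL1-0) to 19.8% (H1792) did. CDKN2A, which encodes p16, was listed at 0 in A549 and CL1-5 and had 9.97, 11.2, 21.7 and 24.9 FPKM in CL1-0, H1792, PC9 and H1299. Its neighbours CDKN2B and MTAP were at 0 and 0.0415 FPKM in A549 and at 0 and 0.0328 FPKM in CL1-5, and the 3 genes kept those levels after DAC, with MTAP at most at 0.0352 FPKM. Over the 3 genes (hg19, chr9:21802635-22009304) the Mock ATAC-seq library labelled PC9 had 1 peak and its DAC library 0. The libraries labelled CL1-5 had 7 and 9 peaks there, those of H1299 had 8 and 12, and those of A549 had 4 and 3. The 2 lines differed beyond these genes. KLHL9 had 0.0129 FPKM in CL1-5 Mock and 0.0144 after DAC, but 7.49 FPKM in A549 Mock. Over the interval that includes KLHL9 (hg19, chr9:21329664-22009304), the Mock and DAC libraries labelled PC9 had 1 and 0 peaks. Those labelled CL1-5 had 16 and 19, those of H1299 17 and 22, and those of A549 26 and 18. DNA copy number was not measured, and a lost locus and a silenced one cannot be told apart from these values alone.

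SMARCA4, a chromatin remodelling ATPase, had 21.9 FPKM in H1792 and 24.4 in PC9, and 3.41 in CL1-5, 2.28 in H1299, 1.51 in CL1-0 and 1.21 in A549. STK11 varied little, between 5.30 and 6.62 FPKM.

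Genes silent in CL1-0 alone, 21 in number and all coding, were the largest silent set outside H1299. KRT8 and KRT18, the paired keratins of simple epithelium, had 0.154 and 0.118 FPKM in CL1-0, while the other lines had 37.8 to 1578 FPKM of KRT8 and 24.6 to 1405 FPKM of KRT18. The hyaluronan receptor CD44 had 0.00421 FPKM, which was 1 read, against 29.3 to 105 FPKM. The receptor kinase AXL had 0.304 FPKM against 32.3 to 281 FPKM. Urokinase (PLAU) was at 0 against 24.6 to 329 FPKM. TGFBR2, the type II receptor of TGF-beta, had 0.468 FPKM and the TGF-beta-induced matrix gene TGFBI had 0.0108 FPKM, against at least 10.6 and 10.7 FPKM. SERPINB1 and ME1, a malic enzyme, were listed at 0. The fucosidase FUCA2 had 0.0303 FPKM against 27.1 to 45.0 FPKM. CL1-0 thus lacked members of the epithelial and of the mesenchymal list alike.

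PC9 lacked 11 genes. UBE2M, which conjugates NEDD8, had 0 FPKM in PC9 and 26.4 to 88.3 FPKM in the others. PRAME, a tumour antigen, had 0 against 13.2 to 99.0 FPKM. NRSN2 had 0.131 FPKM against 12.9 to 28.4 FPKM, MID1IP1 had 0 against 8.66 to 33.2 FPKM and IFI27L2 had 0.318 against 6.62 to 19.2 FPKM. LIX1L, MRC2 (a collagen receptor), MYH10 (non-muscle myosin), ATP8B2 (a lipid flippase) and FAM171A1 were at 0 to 0.372 FPKM. RUNX3, a transcription factor and suppressor that methylation silences in many tumours, had 0 FPKM and lay closest to the limit in the others, at 5.00 to 9.72 FPKM.

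H1792 lacked PRNP, the prion protein gene, with 0.0141 FPKM against 40.0 to 101 FPKM, and BTG3, HSPA13 and DTD1, with 0, 0.00961 and 0.412 FPKM against at least 6.26 FPKM. A549 lacked peroxidasin (PXDN, 0.224 FPKM), hexokinase 2 (HK2, 0.400 FPKM) and SPATC1L (0.04 FPKM), which the others had at 6.13 to 31.8 FPKM. TFPI2, a protease inhibitor known as a target of promoter methylation, was the only gene silent in CL1-5 alone. It had 0.125 FPKM there, 6.21 in H1299, 8.47 in PC9, 24.8 in CL1-0, 59.2 in A549 and 82.7 in H1792.

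Some silent members had silent neighbours, which was looked for after the values were seen. Next to UBE2M, the genes MZF1 and CENPBD1P1 were also under 0.1 FPKM in both PC9 libraries (hg19, chr19:59067079-59116590). In the UBE2M interval the ATAC-seq libraries labelled CL1-5 had 0 peaks in Mock and 0 after DAC, and the other 6 had 3 or 4 each. Also in PC9, MID1IP1 lay in a run of such genes with DYNLT3, SRPX, RPGR, MID1IP1-AS1 and BCOR (hg19, chrX:37696010-40036582), where the libraries labelled CL1-5 had 17 and 14 peaks in Mock and DAC and the other 6 had 19 to 53. Away from any silent member, NUDT10, NUDT11 and GSPT2 (hg19, chrX:51075083-51489328) were under 0.1 FPKM in both libraries of PC9 and of H1792, and the interval held 0 peaks in the libraries labelled CL1-5 and 5 to 7 in the others. In H1792, NRIP1 and USP25 were under 0.1 FPKM beside HSPA13 (hg19, chr21:15743436-17252383), and the series has no ATAC-seq library of this line. Runs away from silent members were not limited to PC9 and H1792. In A549, 6 genes from ZNF253 to ZNF85 (hg19, chr19:19976691-21133503) were under 0.1 FPKM in both libraries. The A549 ATAC-seq libraries had 1 and 3 peaks there, and the others had 15 to 20. In CL1-0, KRT80, KRT7, KRT7-AS, KRT86 and KRT81 (hg19, chr12:52562780-52702947) were under 0.1 FPKM in both libraries. Further runs are not listed. Copy number at these places was not measured.

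After DAC, the genes silent in 1 line stayed low. Of the 132, 13 reached 1 FPKM in their line after DAC and 0 reached 5 FPKM. By line these were 5 of 21 in CL1-0, 4 of 11 in PC9, 4 of 92 in H1299 and 0 of 3, 1 and 4 in A549, CL1-5 and H1792. Among all genes under 0.5 FPKM in Mock, 1.07% in CL1-0, 1.93% in PC9, 1.61% in H1299, 3.04% in A549, 1.36% in CL1-5 and 2.05% in H1792 reached 1 FPKM. The members had to be expressed in 5 lines, which most of those other genes were not, so the shares describe unlike genes.

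In CL1-0, S100A16 went from 0.0996 to 1.61 FPKM, TOR4A from 0.347 to 1.61, S100A13 from 0.363 to 1.07 and KRT8 from 0.154 to 1.05. In PC9, PRAME went from 0 to 2.86 FPKM (0 and 250 reads), MRC2 from 0.372 to 2.22, NRSN2 from 0.131 to 1.41 and IFI27L2 from 0.318 to 1.196. TFPI2 in CL1-5 went from 0.125 to 0.804 FPKM, which was 9 and 52 reads, and PXDN in A549 from 0.224 to 0.839. The log2(FPKM + 0.1) change had a median of 0.69 over the 21 genes of CL1-0, 0.92 over the 11 of PC9 and −0.07 over the 4 of H1792. Its median over all genes was 0 in each line, but 16411 genes were under 0.5 FPKM in all 6 Mock libraries. The rule set low Mock values for the silent genes, so their changes are not independent of it. CD44, TGFBI, PRNP, HSPA13, BTG3, UBE2M, MID1IP1 and FAM171A1 had at most 1 read in the DAC library of their line.

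**Figure D4:**
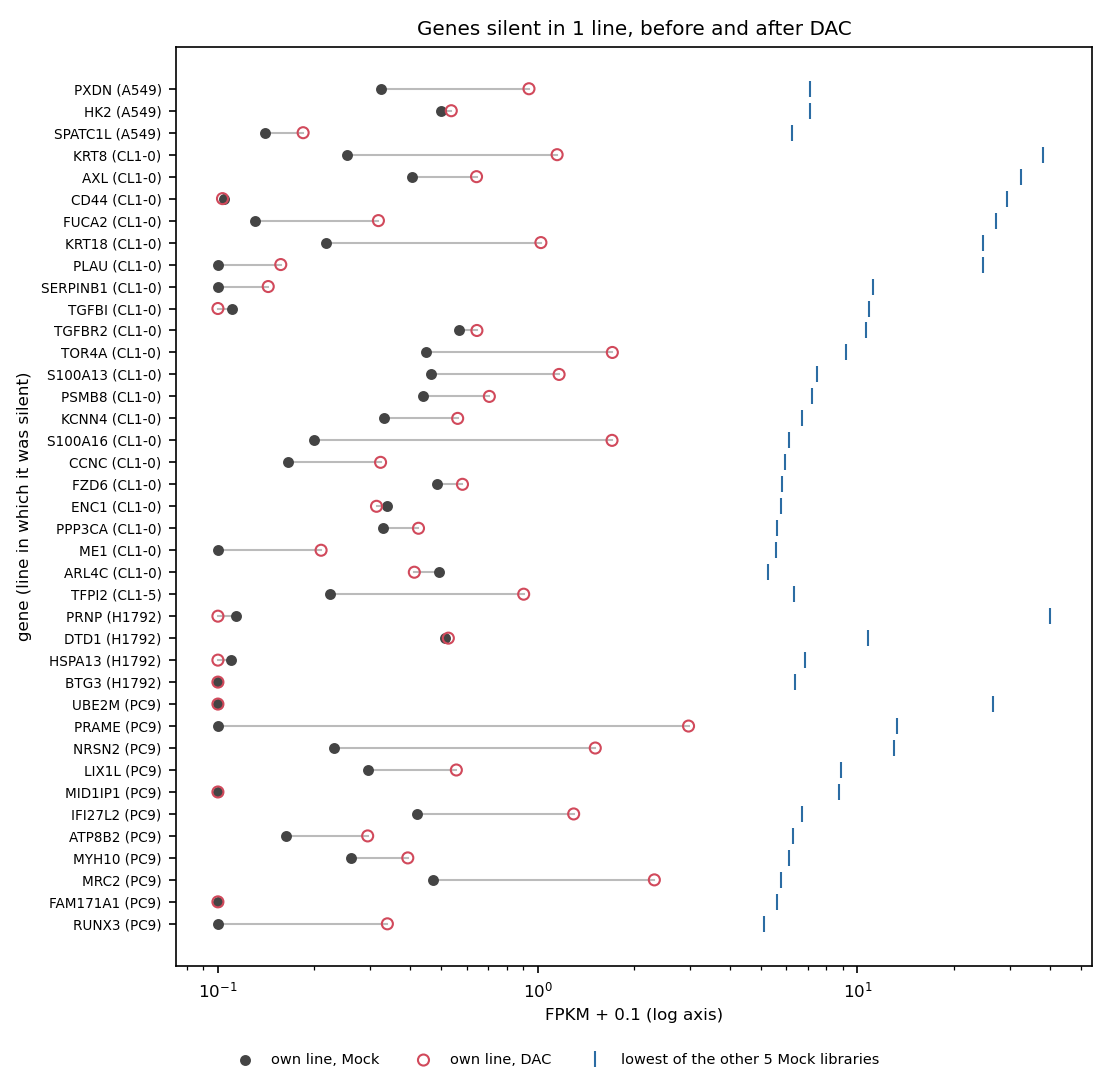
Level of genes silent in 1 line, H1299 left out, in that line in Mock (filled) and after DAC (open), with the lowest of the other 5 Mock libraries as a tick (FPKM + 0.1, log axis). PRAME in PC9 has the highest open point, at 2.86 FPKM, and no open point reaches its tick.

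Promoters of the silent genes were read 250 bases upstream of the RefSeq start (GRCh38.p14). Only 1 start per gene was read, and other starts of a gene were not examined. A promoter was called CpG-rich at an observed to expected CpG ratio of at least 0.6, the motif being CG on either strand. Of 17494 genes with a RefSeq promoter, 97.0% had at least 1 CG in these 250 bases and the median was 17. Among coding members outside H1299, 19 of 32 silent genes (59.4%) and 30 of 118 expressed genes (25.4%) were CpG-rich. The share was 66.8% over all coding genes and 89.9% over coding genes at or above 5 FPKM in all 6 lines. With members of all gene types counted, those expressed in A549, PC9 and H1792 were CpG-poor for the most part, with 5 of 31, 16 of 58 and 9 of 29 CpG-rich. In CL1-0 0 of 8 were CpG-rich, and in CL1-5 4 of 7. Over all genes with a RefSeq promoter the share was 62.5%.

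The promoters of 5 silent genes are shown because their FPKM was higher after DAC than in Mock in the silent line. PRAME and KRT8 were CpG-poor at the start that was read. Whether the lines use that start was not tested, and another start of KRT8 may differ in CpG. LDOC1 was silent in H1299 and is described with that line. Capitals mark CG. TFPI2 (chr7:93890754-93891003, minus strand) has 20 CG, PRAME (chr22:22559266-22559515, minus) has 9, IFI27L2 (chr14:94129605-94129854, minus) has 19, LDOC1 (chrX:141177130-141177379, minus) has 29 and KRT8 (chr12:52926470-52926719, minus) has 1.
TFPI2: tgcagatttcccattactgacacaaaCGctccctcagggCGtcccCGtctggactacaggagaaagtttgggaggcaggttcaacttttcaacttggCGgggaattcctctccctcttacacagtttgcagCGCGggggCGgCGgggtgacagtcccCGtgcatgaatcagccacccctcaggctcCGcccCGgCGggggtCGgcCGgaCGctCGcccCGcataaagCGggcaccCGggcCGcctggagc
PRAME: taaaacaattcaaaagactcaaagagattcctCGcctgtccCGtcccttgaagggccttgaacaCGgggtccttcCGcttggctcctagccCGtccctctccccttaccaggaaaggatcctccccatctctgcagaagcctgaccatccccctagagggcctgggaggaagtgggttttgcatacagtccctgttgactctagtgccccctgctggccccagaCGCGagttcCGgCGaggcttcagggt
IFI27L2: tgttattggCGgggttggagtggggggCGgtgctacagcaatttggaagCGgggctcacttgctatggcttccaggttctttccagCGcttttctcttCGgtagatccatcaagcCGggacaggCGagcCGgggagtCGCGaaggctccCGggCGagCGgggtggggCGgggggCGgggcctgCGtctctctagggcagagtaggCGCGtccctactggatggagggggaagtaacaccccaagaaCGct
LDOC1: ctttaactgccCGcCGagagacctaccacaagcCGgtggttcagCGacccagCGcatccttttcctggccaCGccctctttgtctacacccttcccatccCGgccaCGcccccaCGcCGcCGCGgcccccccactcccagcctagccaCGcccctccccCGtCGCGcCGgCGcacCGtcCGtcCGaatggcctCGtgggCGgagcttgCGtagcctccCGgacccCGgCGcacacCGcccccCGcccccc
KRT8: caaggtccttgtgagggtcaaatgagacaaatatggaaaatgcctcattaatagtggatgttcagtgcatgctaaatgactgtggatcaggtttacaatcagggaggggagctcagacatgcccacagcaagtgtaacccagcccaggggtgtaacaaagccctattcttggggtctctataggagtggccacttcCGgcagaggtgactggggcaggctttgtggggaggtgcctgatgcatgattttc

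Accessibility at these promoters was read as the highest fold enrichment over background among peaks within 3000 bp of the start and listed for the gene. IFI27L2 had no such peak in the Mock library labelled CL1-5, a fold enrichment of 3.77 in its DAC library, and 7.39 to 7.75 in the other 3 Mock libraries. TFPI2 had a fold enrichment of 3.09 in the Mock library labelled PC9 and 6.92 to 8.72 in the other 3. LDOC1 had no peak in either H1299 library and 4.31 to 6.82 in the other 3 Mock libraries. PRAME had a peak of 6.03 to 8.78 in all 4 Mock libraries, so a promoter peak was called in both the library labelled PC9 and the one labelled CL1-5.

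Over all genes that a peak list names, a peak near the start was called for 72% in the A549 Mock library, 75.2% in that labelled CL1-5, 73.4% in that labelled PC9 and 67.5% in that labelled H1299. Over the coding genes among them, the shares were 75.0%, 78.2%, 76.1% and 70.4%, in that order. Of the 38 coding A549 genes that a list names, 32 (84.2%) had such a peak in the A549 library, 23 (60.5%) each in those labelled CL1-5 and PC9, and 10 (26.3%) in that of H1299. Of the 77 coding PC9 genes, 71 (92.2%) had one in the library labelled CL1-5 and 38 (49.4%) in the library labelled PC9, with 36 (46.8%) in A549 and 18 (23.4%) in H1299. GRHL2 had its only Mock peak, with a fold enrichment of 6.47, in the library labelled CL1-5. Of the 8 coding CL1-5 genes, 7 had a peak in the library labelled CL1-5 and 5 in the library labelled PC9. This order did not hold in the DAC libraries, where 2 and 4 of the 8 had one, or at a q-value under 0.001, where 25% and 37.5% did. The 43 coding H1299 genes had a peak in 12 cases (27.9%) in the H1299 library and in 10 to 12 cases in the other 3.

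**Figure D5:**
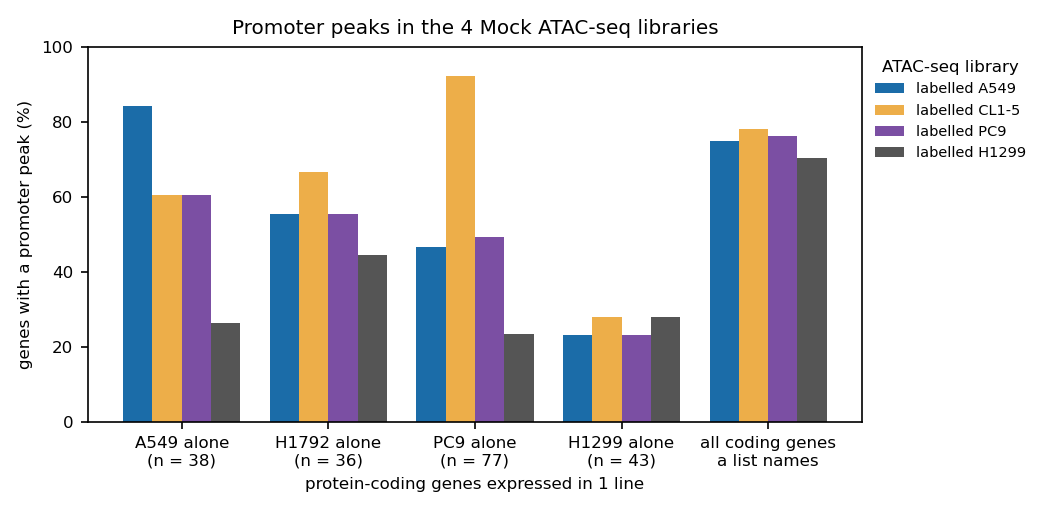
Share of coding genes expressed in 1 line with an ATAC-seq peak within 3000 bp of the start, in the 4 Mock libraries by label, beside all coding genes a list names. A549 genes peak in the A549 library at 84.2%, PC9 genes in the library labelled CL1-5 at 92.2%, and H1299 genes lie between 23.3% and 27.9% in all 4.

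Most line-specific genes remained expressed in their line after DAC, and many lost their exclusiveness. Of the 223 genes outside H1299, 179 kept at least 5 FPKM in their line, and 89 also stayed under 0.5 FPKM in the DAC libraries of the other 5. By line 13 of 44 A549 genes (29.5%), 7 of 13 CL1-0 genes (53.8%), 4 of 22 CL1-5 genes (18.2%), 15 of 44 H1792 genes (34.1%), 50 of 100 PC9 genes and 93 of 137 H1299 genes (67.9%) kept both. Among all genes, the DAC libraries gave 38 genes by the same rule in A549 (0.105%), 11 in CL1-0 (0.0305%), 8 in CL1-5 (0.0222%), 43 in H1792 (0.119%), 72 in PC9 (0.2%) and 149 in H1299 (0.413%).

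Outside H1299, 62 of the 223 genes reached 1 FPKM in another line after DAC. By line these were 13 of 44 A549 genes, 4 of 13 CL1-0 genes, 12 of 22 CL1-5 genes, 11 of 44 H1792 genes and 22 of 100 PC9 genes, and in H1299 14 of 137. Among all genes under 0.5 FPKM in the 5 Mock libraries other than that line, the share was 3.26% for A549, 3.74% for CL1-0, 3.81% for CL1-5, 3.46% for H1792, 3.67% for PC9 and 3.1% for H1299. Most of those genes were under 0.5 FPKM in the remaining line too, so again the shares describe unlike genes. Cancer-testis genes were among those that did. CT47A11 reached 11.3 FPKM in H1299 and 4.27 FPKM in PC9, and MAGEA11 of CL1-5 reached 2.74 FPKM in A549 and 1.58 FPKM in H1299. SPANXC of CL1-0 reached 26.9 FPKM in H1792 and 13.1 FPKM in PC9, and MAGEC1 of PC9 reached 4.7 FPKM in H1299. GTSF1, a germ line factor of the piRNA pathway that was expressed in H1299 alone in Mock (32.2 FPKM), had 11.3, 5.38, 6.07, 1.63 and 8.92 FPKM after DAC in A549, CL1-0, CL1-5, H1792 and PC9. Its promoter peak was called in Mock in the H1299 library alone, and after DAC also in A549 with a fold enrichment of 4.61. PAGE2, a cancer-testis gene of the H1299 set that shared 56.8% of its 31-base words, went from at most 0.061 FPKM to 28.6 FPKM in A549 and 33.7 FPKM in H1792. Genes of other classes also spread, as SUSD2 of A549 reached 8.62 FPKM in CL1-5, while KLK6, KRT13 and HNF4A stayed under 0.5 FPKM in the DAC libraries of every other line.

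Levels within the own line changed in both directions after DAC. The H1792 chemokine CXCL6 had 38.0 FPKM in Mock and 192 FPKM after DAC. In A549, the metalloproteinase MMP7 had 18.4 FPKM in Mock and 4.08 FPKM after DAC, and the annexin ANXA13 had 9.09 and 2.30 FPKM. The median log2(FPKM + 0.1) change of the expressed members was −0.49 in A549 (32 of 44 lower), −0.31 in CL1-0 (9 of 13 lower), −0.33 in CL1-5 (18 of 22 lower), −0.10 in PC9 (57 of 100 lower), 0.22 in H1792 (17 of 44 lower) and 0.19 in H1299 (56 of 137 lower). The rule used the Mock values, so these changes are not independent of it.

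A list of 35 genes known for promoter methylation in lung cancer held 2 silent members, TFPI2 in CL1-5 and RUNX3 in PC9. The whole table held 132 silent members among 36076 genes. Of the 35, 13 reached 5 FPKM in H1792, 11 in CL1-5, 11 in PC9, 10 in A549, 8 in CL1-0 and 6 in H1299. Of all genes, 18.2% (CL1-0) to 19.8% (H1792) did. The list was written with earlier results known, so these shares are a description. T-cadherin (CDH13) was expressed in CL1-5 (11.6 FPKM) and H1792 (16.2 FPKM) and had at most 0.00379 FPKM in the other 4. The retinoic acid receptor RARB had 5.64, 9.25 and 11.2 FPKM in A549, CL1-0 and H1792 and at most 0.151 FPKM in the others, where DAC left it at 0.134 to 0.374 FPKM. TIMP3, a metalloproteinase inhibitor, had 82.2 FPKM in PC9 and 51.9 in CL1-5 against 0.0406 FPKM in A549 and 0.0076 FPKM in H1299.

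The H1299 sets were of another kind. Of its 137 expressed genes, 77 were pseudogenes, 68 of them processed, and 48 were coding, while pseudogenes made up 0 to 3 members in each other line. Of all pseudogenes in the table, 4.71% reached 5 FPKM in H1299 Mock and 2.86% to 3.37% in the other 5. Most of the highest coding members were relatives of abundant genes. RPL10L, a testis retrocopy of a ribosomal protein gene, had 1004 FPKM in H1299 and at most 0.417 FPKM elsewhere. HNRNPCL1, a relative of HNRNPC, had 430.3 FPKM and shared 63.0% of its 31-base words, and the actin gene ACTA1 had 160.0 FPKM. ATP5MGL (123 FPKM), SUMO4 (49.5 FPKM) and MT1HL1 (45.0 FPKM) also resemble abundant genes. NXF2 and RHOXF2B, germ line genes on the X chromosome, had 66.2 and 59.8 FPKM and shared 98.6% and 94.9% of their words.

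Members with little shared sequence remained in H1299. Of the 48 coding genes, 31 shared under 20% of their words with another transcript. Among them were GTSF1, TDRD12, also of the piRNA pathway (25.1 FPKM), MAGEA8 (11.8 FPKM), the dipeptidase DPEP3 (11.0 FPKM), the myosin light chain MYL4 (11.0 FPKM), the WNT regulator DACT1 (8.11 FPKM) and the homeobox gene HOXD9 (6.08 FPKM). TDRD12 had a promoter peak of 7.92 in the H1299 Mock library, the highest of the 4 Mock libraries. Within the subset of 30 that a peak list names, 9 had a promoter peak in H1299 Mock and 7 to 10 in the others.

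Of the 92 genes silent in H1299, 85 were listed at 0 in both its Mock and its DAC library, compared with 3 such genes in PC9, 1 in H1792 and 0 in A549, CL1-0 and CL1-5. Mitochondrial genes made up 20 of the 92, and all 26 mitochondrial genes of the table were at 0 in both H1299 libraries. COX2, a cytochrome oxidase subunit gene of the mitochondrial genome, had 5797 to 15626 FPKM in the other 5 Mock libraries. Pseudogenes made up 42. Of the 65 non-mitochondrial genes at 0 in both, 46 shared at least 20% of their words with another transcript or overlapped another gene's exons by at least 20%. The same libraries had the even read numbers and the higher depth given above, and the part of read assignment in the zeros was not tested.

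Reads were present in H1299 Mock for 6 of the 92 genes. FOS, an immediate early factor, had 0.486 FPKM against 18.8 to 121 FPKM. Serglycin (SRGN) had 0.086 FPKM against 15.5 to 266 FPKM, and LDOC1 had 0.076 FPKM against 13.3 to 52.0 FPKM. Endothelin 1 (EDN1) had 0.103 FPKM against 5.47 to 78.0 FPKM, and the adaptor GRB10 had 0.00528 FPKM against 5.11 to 11.5 FPKM. NACA2, with 0.360 FPKM, shared 87.1% of its words with another transcript. After DAC, SRGN had 2.62 FPKM, FOS had 1.86 FPKM and LDOC1 had 1.45 FPKM in H1299. SNORD78, a small nucleolar RNA gene that lies within the exons of another gene, was at 0 in Mock and at 4.66 FPKM (16 reads) after DAC.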

How the data were processed

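mRNA-seq of 12 libraries and ATAC-seq of 8 libraries were used, with 1 library per line and treatment. For mRNA-seq the authors ran Trimmomatic, RSEM and bowtie2 (hg19), counted reads on a GENCODE annotation and deposited FPKM made with DESeq2 1.24.0. The submitters' processing notes also name TopHat2 2.1.1. The authors also deposited a mean normalized signal per gene, and log2 fold changes with p-values, which hold their own comparison and were not used. The deposited ATAC-seq lists give broad peaks per library from MACS2 2.2.5 with fold enrichment and −log10 q-value. 0 value columns lacked a sample.

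Whole reads behind each FPKM were recovered from the FPKM and the mean normalized signal, with 100% of the values whole to within 0.05 of a read, and the steps were tested on simulated data. Read numbers cover counting error only. The members and lists were chosen with earlier results of these data known. The text names, per line, the 8 coding expressed members with the highest FPKM and the 8 coding silent members with the highest low value elsewhere, members of the lists, and lineage, driver and suppressor list genes at 5 FPKM or more in a line with a highest-to-lowest ratio of at least 10 on FPKM + 0.1, with CDKN2A and MTAP. Some genes that this rule names are not reported here. Other genes were chosen after their values were seen. Of 36076 gene identifiers, 35393 matched the annotation. Gene types and positions come from GENCODE v44 lifted to GRCh37. Words of 31 bases of each gene's longest transcript were matched to those of all other genes. Promoters came from RefSeq. Alternatives were other limits (10 and 0.1 FPKM), rescaling to TPM, quantile normalization, at least 20 reads, coding genes only, lines left out, a pseudocount of 1, windows of 1000 bp and a q-value under 0.001. Python 3.11.15 with pandas 2.3.3 and numpy 2.4.6 was used.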

Additional observations from a re-analysis of the deposited data

How the results depend on the processing

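Each line and treatment has 1 library, so no replicate could be left out. No paired analysis was possible because each group has 1 library, numbered 1, and no result comes from a test. Mock and DAC libraries of a line were compared as single values. Of 86 recounts of the gene sets, 47 were within 1.5 times the reported number. With at least 10 FPKM for expression, the expressed genes numbered 20 in A549, 6 in CL1-0, 8 in CL1-5, 14 in H1792 and 55 in PC9, and the silent ones 0 in A549, 10 in CL1-0, 0 in CL1-5, 2 in H1792, 3 in PC9 and 49 in H1299. With silence set at 0.1 FPKM, the expressed genes numbered 19, 5, 12, 21, 44 and 64 in A549, CL1-0, CL1-5, H1792, PC9 and H1299, and the silent ones 1 in A549, 9 in CL1-0, 0 in CL1-5 and 6 in PC9. Rescaling to TPM, which raises all values, gave 29 expressed genes in CL1-0 and 84 in H1792, and 6, 32, 6, 8, 32 and 213 silent ones in A549, CL1-0, CL1-5, H1792, PC9 and H1299. Quantile normalization gave 2 silent genes in CL1-5. Coding genes alone left 6 expressed genes in CL1-0, 11 in CL1-5 and 48 in H1299, and 22 silent ones in H1299. When H1299 was not consulted, 32 genes were silent in CL1-0 and 5 in CL1-5. When the other CL1 line was not consulted, 21 and 34 genes were expressed in CL1-0 and CL1-5 and 6 were silent in CL1-5.

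With a pseudocount of 1, the median log2 change after DAC of the silent genes was 0.061 in A549, 0.20 in CL1-0, 0.68 in CL1-5 and 0.29 in PC9. With a limit of 1 FPKM in the other lines after DAC, 47.7% of A549, 56.8% of H1792, 68% of PC9 and 80.3% of H1299 genes stayed expressed in their line alone.

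At a q-value under 0.001, the share with a promoter peak was 68.4% for A549 genes in the A549 library, 42.1% in that labelled CL1-5 and 39.5% in that labelled PC9. It was 27.3%, 26.0% and 14.3% for PC9 genes in the libraries labelled A549, PC9 and H1299, 25% for CL1-5 genes in that labelled CL1-5 and 37.5% in that labelled PC9, and 6.98% and 13.95% for H1299 genes in those labelled A549 and CL1-5. Within 1000 bp, it was 33.8% and 29.9% for PC9 genes in the libraries labelled A549 and PC9 and 13.95% for H1299 genes in that labelled CL1-5. Counting any peak near the annotated start, an alternative chosen after seeing the data, gave 78.9% for A549 genes in the A549 library. For PC9 genes it gave 87.0% in the library labelled CL1-5 and 42.9% in that labelled PC9. For H1299 genes it gave 25.6% in the H1299 library. Genes of 1 library are not replicates, so no interval is set around these shares. The cause of these changes was not tested.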
